A study of Rattus norvegicus with 12 samples.

Results

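The genes described here encode the receptors for GABA and glutamate, the main inhibitory and excitatory transmitters of the nervous system, measured in the dorsal root ganglia of rats with and without nerve injury. Membership was set by gene symbol, as the GABA-A (Gabr), GABA-B (Gabbr), AMPA (Gria), delta (Grid), kainate (Grik), NMDA (Grin) and metabotropic glutamate (Grm) receptor genes. The choice was made with earlier results of these data known. The rule found 41 genes among the 10411 genes with a named probe set, 17 for GABA and 24 for glutamate, each read from its brightest probe set. Other genes of these families were not analysed here.

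The ganglia (L4/L5) came from adult male Sprague Dawley rats of a High Pain (HP) and a Low Pain (LP) genetic sub-line. Rats had either spinal nerve ligation (SNL), here of the L4 and L5 nerves, or a sham operation that left the nerves undamaged, and the ligated groups were sampled at 3 days. Each line and operation had 3 Affymetrix arrays, 12 in all, and the time of the sham groups is not in the labels. The labels do not say whether an array held 1 animal or a pool, so p-values measure the spread between these arrays, which may be technical.

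GABA-A receptors are chloride channels built from several subunits, and in sensory neurons, which keep their chloride high, GABA depolarises the membrane and damps transmitter release from the central terminal. GABA-B receptors are G protein-coupled pairs of the subunits Gabbr1 and Gabbr2. Glutamate is the fast transmitter of primary sensory neurons, which also carry AMPA, kainate and NMDA channels and metabotropic receptors on their own membranes and terminals.

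Values are probe set signals on the linear scale of the arrays, given for each of the 3 arrays of a group, and differences are in log2 of the signal plus 1, ± SE, a scale that understates changes of dim genes. Tests were made with limma over all genes, with Benjamini-Hochberg adjusted p-values and a threshold of 0.05. Most of these receptor genes were dim: 22 of 41 had a mean in the lowest 25% of all genes, 35 lay below the median, and only Gabbr1, Gabbr2 and Grm8 lay in the brightest 25%. Replicates of the dimmest 25% of genes spread by a median SD of 0.526 in log2, and those of the brightest 25% by 0.131. A low signal is not a sign of absence, since the table gives no detection calls.

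The tissue was checked with marker genes. Of 11 sensory neuron markers, 3 fell in each line, among them Avil, a marker of peripheral sensory neurons, with log2 differences of -0.91 ± 0.10 in HP and -1.02 ± 0.10 in LP. Avil does not stand for the whole list, since the median over the 11 markers was -0.14 in HP and -0.19 in LP. The summed signal of the neuron list was 61350 to 65900 in HP sham, 54390 to 58700 in HP SNL, 60270 to 65520 in LP sham and 50800 to 55770 in LP SNL. Macrophage markers rose for 6 of 8 genes in each line, with sums of 2728 to 2981 (HP sham), 6183 to 6673 (HP SNL), 2555 to 2738 (LP sham) and 5698 to 6557 (LP SNL). Of 5 fibroblast markers 3 rose in each line, with sums of 19240 to 21350 (HP sham), 27370 to 29470 (HP SNL), 18500 to 21420 (LP sham) and 23850 to 31360 (LP SNL). Of 5 satellite glia markers 2 rose in each line, of 5 Schwann cell markers 1 (Sox10) rose in each line, and of 4 endothelial markers 1 rose in HP and none in LP. Of 5 central nervous system markers none passed, with sums between 216.4 and 565.1 on every array. Of 4 skeletal muscle markers 2 fell in HP, with sums of 888.5 to 2020 in HP sham and 762.0 to 1001 on the arrays of the other groups. No marker was at 0. In bulk tissue, fewer cells of a type and less RNA per cell cannot be told apart, and the part of these shifts in the receptor results was not tested.

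Ligation changed a small set of receptor genes, most of them downward. In HP, Gabbr2, Gabrb2, Gria2, Grik1 and Grm4 fell and Gabra5 rose, and in LP these same 6 genes changed in the same directions, with Grin1 falling and Grin2a rising as well. The counts were 6 of 41 in HP (14.6%) and 8 of 41 in LP (19.5%), against 13.6% and 14.5% of all genes. Fallers made up 12.2% of the receptor genes in HP and 14.6% in LP, against 6.59% and 6.79% of all genes, and risers 2.44% and 4.88% against 7.02% and 7.66%. The median log2 difference was -0.10 in HP and -0.04 in LP, beside -0.000775 and 0.0226 over all genes. The total share was near that of all genes in HP and a little above it in LP, and no test of the list was made. Genes past the threshold in the same direction in both lines were 14.6% of the receptor genes (2.44% higher and 12.2% lower), against 9.59% of all genes (5.07% higher and 4.51% lower). Averaged over both lines, the same 8 genes passed (19.5%, against 24.8% of all genes). The ratio of actin signal at the 3' end to that at the 5' end is a sign of RNA quality, and with it as a covariate the HP count was 3 (Gabbr2, Gabra5 and Gria2). That ratio was 1.483 to 1.847 in HP sham and 1.118 to 1.342 in HP SNL, so it moved with surgery in HP, and its part in the result beyond this fit was not tested. It was 0.9931 to 1.877 in LP sham and 1.113 to 1.125 in LP SNL. In LP all 8 passed with the covariate.

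**Figure D1:**
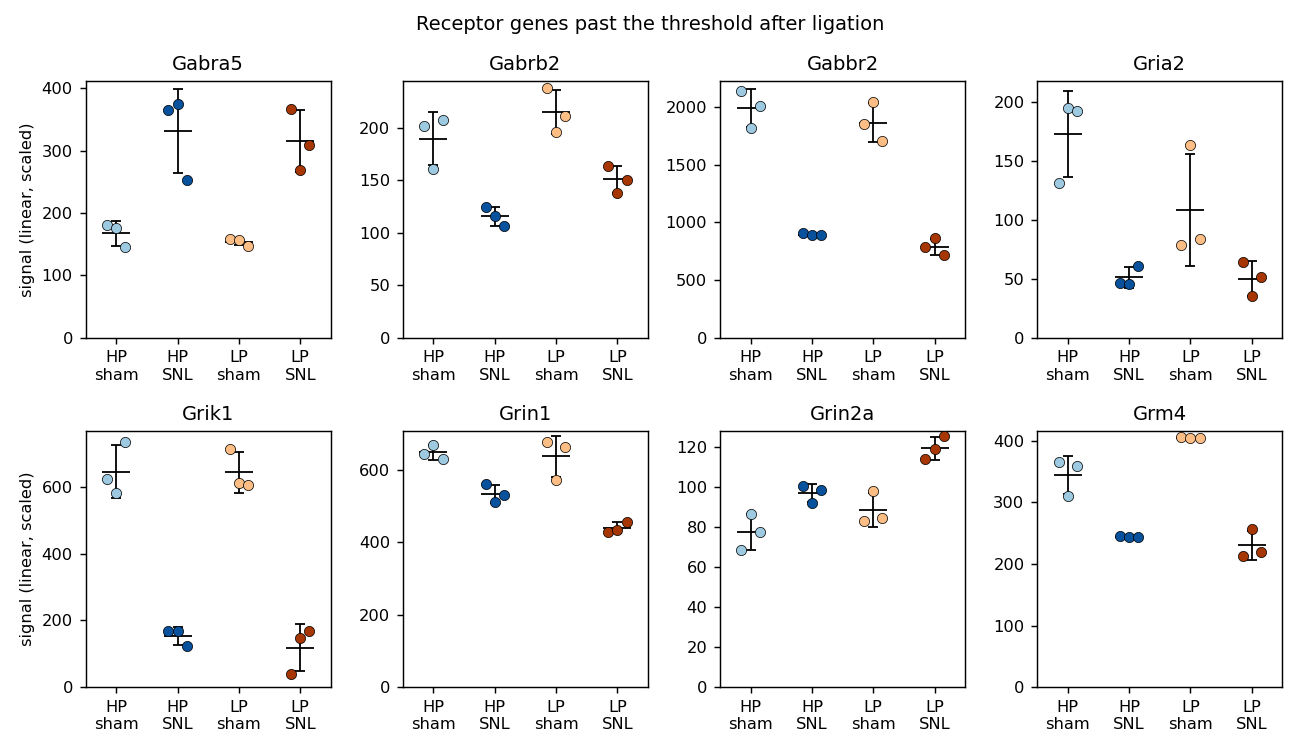
Signals (linear, scaled) of the 8 receptor genes past the threshold after ligation, with 1 point per array, bars for the group mean and whiskers for the SD (n = 3). Sham and SNL arrays do not overlap in either line for any of the 8 genes.

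Of the 8 changed genes, 5 have an entry in the RefSeq promoter table (build GRCr8). The 250 bases before the start of each are printed to show the sequence just upstream of the changed receptor genes. Capitals mark matches to the GC box GGGCGG and to the half-site TGACG of the cyclic AMP response element, on either strand. The windows, 5' to 3' on the strand of the gene, were chr1:117516607-117516856 (minus) for Gabra5, the riser, then chr10:27439543-27439792 (plus) for Gabrb2 and chr5:66083696-66083945 (minus) for Gabbr2. Those of Grik1 and Grin1 were chr11:41056504-41056753 (minus) and chr3:28528755-28529004 (minus).
Gabra5: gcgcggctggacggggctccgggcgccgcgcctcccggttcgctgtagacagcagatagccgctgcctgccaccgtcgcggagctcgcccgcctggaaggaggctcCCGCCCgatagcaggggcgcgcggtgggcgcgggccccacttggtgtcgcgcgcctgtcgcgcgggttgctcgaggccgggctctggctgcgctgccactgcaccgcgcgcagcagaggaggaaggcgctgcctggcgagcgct
Gabrb2: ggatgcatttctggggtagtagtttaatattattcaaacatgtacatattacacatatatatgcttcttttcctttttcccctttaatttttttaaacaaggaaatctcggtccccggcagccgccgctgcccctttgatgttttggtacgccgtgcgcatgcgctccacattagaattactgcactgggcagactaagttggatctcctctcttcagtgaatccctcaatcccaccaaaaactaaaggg
Gabbr2: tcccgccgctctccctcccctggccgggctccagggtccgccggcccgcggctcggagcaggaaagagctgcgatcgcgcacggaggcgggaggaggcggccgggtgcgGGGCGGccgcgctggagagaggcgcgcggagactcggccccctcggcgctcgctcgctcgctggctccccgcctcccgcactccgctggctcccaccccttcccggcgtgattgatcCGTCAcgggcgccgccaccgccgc
Grik1: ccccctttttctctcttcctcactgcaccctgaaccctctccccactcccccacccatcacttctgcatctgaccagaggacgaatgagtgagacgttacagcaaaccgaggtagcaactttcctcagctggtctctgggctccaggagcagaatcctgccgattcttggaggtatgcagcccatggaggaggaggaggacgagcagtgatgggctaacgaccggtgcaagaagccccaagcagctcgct
Grin1: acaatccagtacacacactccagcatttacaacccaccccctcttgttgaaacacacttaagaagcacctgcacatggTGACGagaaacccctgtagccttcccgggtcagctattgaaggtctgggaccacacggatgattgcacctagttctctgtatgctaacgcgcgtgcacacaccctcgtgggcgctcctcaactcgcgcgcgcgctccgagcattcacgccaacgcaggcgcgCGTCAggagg

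The promoters did not share one make-up. Those of Gabra5, which rose, and Gabbr2, which fell, were both rich in G and C (76.4% and 78.8%) with 37 and 39 CG pairs, against medians of 54.8% and 9 over 19005 promoters of protein-coding genes. Gabrb2 had 43.2% and 8 CG pairs, Grik1 57.6% and 8, and Grin1 57.6% and 19. The GC box was in 11 of the 30 receptor promoters with an entry (36.7%) and in 40.3% of all promoters, and the TGACG half-site in 4 of 30 (13.3%) and 21.2%. The AP-1 motif TGANTCA, the full element TGACGTCA, which contains the half-site, and the half-site TTCAGCACC of the neuronal repressor REST were in none of the 30, and in 5.82%, 2.03% and 0.342% of all promoters. The TATA box TATAAA was in Gabra3 and Gabrr2 only, 6.67% against 12.3%. These are counts of letters in 250 bases and not of bound sites.

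Among the GABA-A channel genes, Gabra5 rose in both lines. It encodes the alpha5 subunit of receptors that lie largely outside synapses. Its signal was 181, 176 and 145 in HP sham against 366, 375 and 253 after ligation, and 158, 157 and 147 in LP sham against 367, 268 and 309 in LP SNL. Every ligated array lay above every sham array of both lines. The log2 difference was 0.97 ± 0.17 in HP (1.96-fold, adjusted p = 0.00503) and 1.02 ± 0.17 in LP (2.02-fold, adjusted p = 0.00336), and it passed in all 22 alternatives in each line.

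Gabrb2, which encodes a beta subunit of the same channels, fell in both lines. The arrays read 201, 160 and 207 in HP sham against 125, 116 and 107 after ligation, and 238, 196 and 211 in LP sham against 164, 138 and 151 in LP SNL. The ligated arrays lay below the sham arrays within each line, by -0.70 ± 0.13 in HP (adjusted p = 0.00584) and -0.51 ± 0.13 in LP (adjusted p = 0.0235). The fall rests on 1 of its 2 probe sets. The dimmer one, with a mean signal of 110.3, differed by -0.14 ± 0.44 in HP and 0.50 ± 0.44 in LP, and with both averaged the log2 difference of Gabrb2 was -0.42 in HP and -0.0042 in LP (adjusted p = 0.346 and 0.996). The LP call of Gabrb2 was lost in 7 of 22 alternatives. Beside the averaging these were trended and robust variance (adjusted p = 0.0798), the fit of the LP arrays alone (0.0653), and the fits without LP sham replicate 1 (-0.43, adjusted p = 0.0792) or 3 (-0.52, 0.0503) and LP SNL replicate 2 (-0.45, 0.0764) or 3 (-0.51, 0.0678), in a range of 0.00905 to 0.996. The HP call was also lost with the actin covariate (-0.54, adjusted p = 0.0502).

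None of the other 10 GABA-A genes, nor the 3 rho genes, passed in either line. The smallest p-values among them were those of Gabrd in LP (0.39 ± 0.14, adjusted p = 0.099), the delta subunit of tonic receptors, and of Gabra4 in LP (0.34 ± 0.14, adjusted p = 0.139). Gabrg1, with a mean of 390.7 the brightest gene of the family, had -0.11 ± 0.16 and -0.29 ± 0.16, and Gabre had 0.24 ± 0.22 and 0.20 ± 0.22, in HP and LP. Of the rho genes, which form channels of their own and are best known from the retina, Gabrr1 had 0.26 ± 0.26 and 0.33 ± 0.26, Gabrr2 0.08 ± 0.21 and -0.06 ± 0.21, and Gabrr3 -0.45 ± 0.27 and -0.00204 ± 0.27. Gabra3 had -0.05 ± 0.61 in HP and 0.90 ± 0.61 in LP, Gabrb1 0.37 ± 0.17 and 0.08 ± 0.17, Gabrp -0.49 ± 0.23 and 0.08 ± 0.23, and Gabrq -0.09 ± 0.67 and -0.0022 ± 0.67. Over the 12 non-rho genes the log2 differences ran from -0.70 to 0.97 in HP and from -0.51 to 1.02 in LP, with medians of 0.04 and 0.08.

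Many GABA-A genes sit side by side in the genome, and neighbours did not change together. Gabra5 lies next to Gabrg3, whose log2 difference was 0.25 ± 0.15 in HP and -0.34 ± 0.15 in LP (adjusted p = 0.32 and 0.167). Gabrb2 lies next to Gabra6, which had 0.13 ± 0.35 and -0.25 ± 0.35. In the groups of Gabrb1, Gabra4 and Gabrg1, of Gabre, Gabra3 and Gabrq, and of Gabrr1 and Gabrr2, no measured gene passed.

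The GABA-B receptor showed a large fall of one subunit. Gabbr2, the subunit that couples to the G protein and carries its partner to the cell surface, was among the brightest receptor genes. Its signal was 2141, 1820 and 2009 in HP sham against 904, 885 and 887 after ligation, and 1849, 2042 and 1701 in LP sham against 782, 861 and 717 in LP SNL. The highest of the 6 ligated arrays read 904 and the lowest of the 6 sham arrays 1701. Ligation changed log2 signal by -1.15 ± 0.11 in HP, to 0.450 of sham (adjusted p = 0.000205), and -1.24 ± 0.11 in LP, to 0.422 of sham (adjusted p = 0.000106). A dimmer probe set for Gabbr2 moved the same way by a smaller amount, -0.71 ± 0.20 in HP and -0.67 ± 0.20 in LP (adjusted p over all named probe sets 0.043 and 0.0503).

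Gabbr1, the subunit that binds GABA, did not pass in either line. The arrays read 2513, 2664 and 2456 in HP sham against 2736, 2488 and 2611 after ligation, and 3024, 2954 and 2863 in LP sham against 2673, 2699 and 2571 in LP SNL. The HP groups overlapped, while in LP all ligated arrays lay below the sham arrays. The log2 difference was 0.04 in HP (95% interval -0.14 to 0.21) and -0.15 in LP (-0.33 to 0.02; adjusted p = 0.241). Its 4 other probe sets had log2 differences between -0.15 and 0.03 averaged over the lines, none past the threshold.

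**Figure D2:**
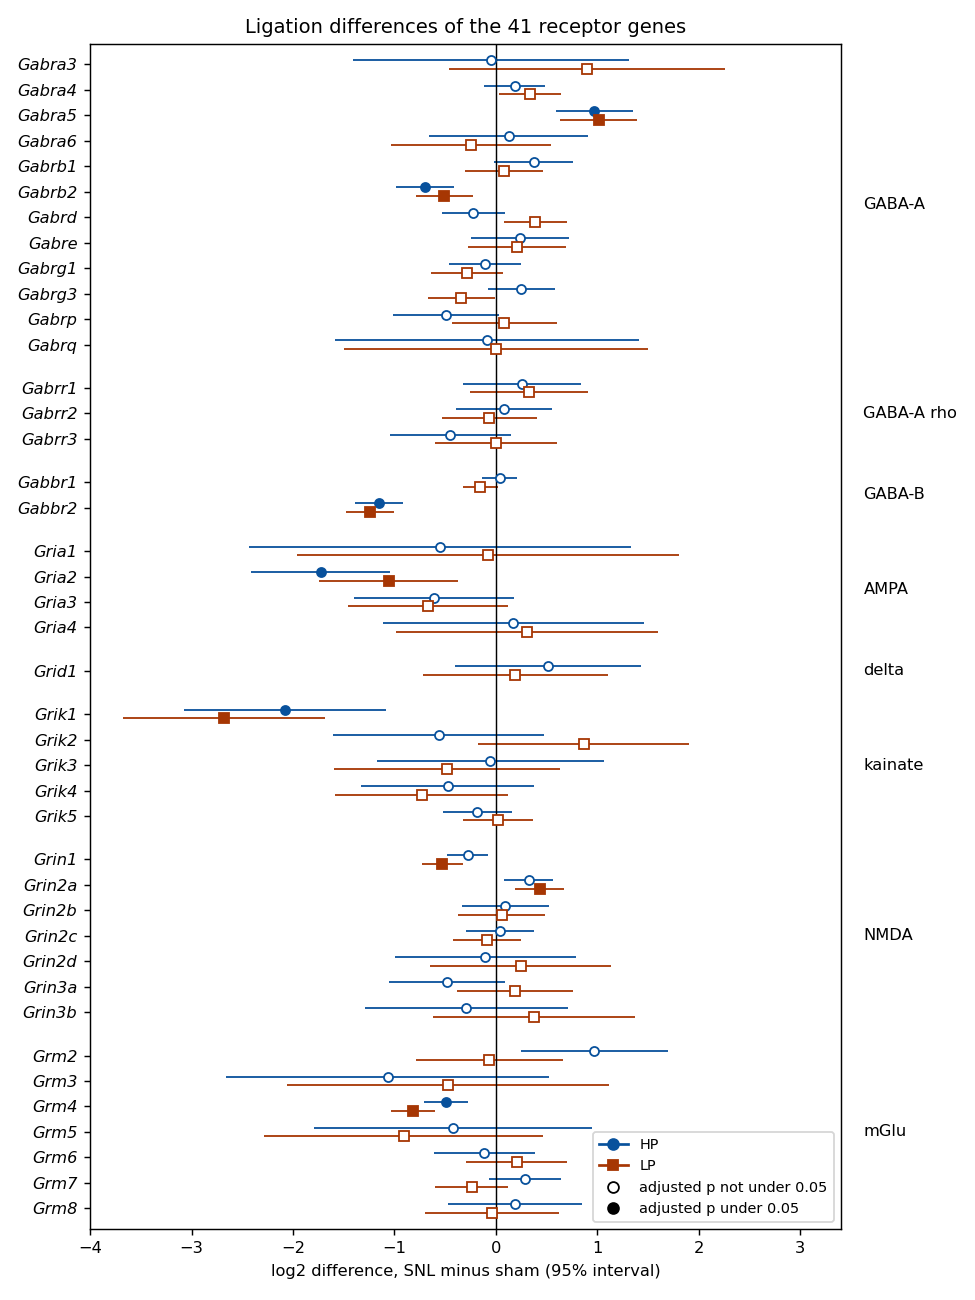
Log2 difference (SNL minus sham) of each of the 41 receptor genes in HP (circles) and LP (squares) with its 95% interval from the limma fit, grouped by receptor family, filled where the adjusted p was under 0.05. Filled pairs stand left of 0 for Gabrb2, Gabbr2, Gria2, Grik1 and Grm4 and right of 0 for Gabra5.

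Of the AMPA channel genes, Gria2 fell. It encodes the subunit that keeps AMPA receptors from passing calcium. Its signal was 131, 195 and 192 in HP sham against 46.8, 45.6 and 60.9 after ligation, and 78.8, 163 and 83.6 in LP sham against 64.4, 35.0 and 51.2 in LP SNL. Sham and ligated arrays did not overlap in either line, but the spread in LP sham was wide, set by replicate 2. Ligation changed log2 signal by -1.73 ± 0.31 in HP (adjusted p = 0.00541) and -1.06 ± 0.31 in LP, where it passed narrowly (adjusted p = 0.0455). In LP it lost the call in 13 of 21 alternatives, whose adjusted p ranged from 0.00295 to 0.144 over all 21. Over all fits that left out 1 array, with or without the call, the LP difference ran from -1.26 to -0.72. Without LP sham replicate 2 it was -0.72 and the call was lost (adjusted p = 0.125). The call was also lost without LP sham replicate 3 (-1.20), LP SNL replicate 2 (-0.83) or LP SNL replicate 3 (-1.09), and, through the shared spread, without HP sham replicates 2 or 3 or any HP SNL replicate.

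The other probe set of Gria2 gave larger falls with less spread in LP sham. The arrays read 91.7, 116 and 125 in HP sham against 24.7, 39.2 and 10.5 after ligation, and 140, 124 and 115 in LP sham against 32.6, 20.8 and 36.3 in LP SNL. In both lines the ligated arrays lay far below the sham arrays. Its log2 difference was -2.29 ± 0.39 in HP and -2.07 ± 0.39 in LP (adjusted p over all named probe sets 0.00478 and 0.0066). With both probe sets averaged, the log2 difference of Gria2 in LP was -1.57 (adjusted p = 0.00295).

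Gria1, Gria3 and Gria4, the other AMPA subunits, were all in the dimmest 25% and did not pass. Gria3 had -0.61 ± 0.35 in HP and -0.67 ± 0.35 in LP, Gria1 -0.55 ± 0.85 and -0.08 ± 0.85, and Gria4 0.17 ± 0.58 and 0.31 ± 0.58. With SEs of 0.35 to 0.85, changes of the size seen in Gabrb2 were not detectable. Grid1, a delta receptor of synapse organisation, had 0.51 ± 0.41 and 0.19 ± 0.41.

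Among the probe sets standing for the 41 genes, the largest log2 difference in each line was that of the kainate receptor gene Grik1, whose subunit GluK1 forms the kainate channels typical of small sensory neurons. Its signal was 622, 581 and 732 in HP sham against 169.5, 167 and 122 after ligation, and 712, 611 and 605 in LP sham against 38.6, 149 and 169 in LP SNL. No ligated array came near the lowest sham array. The log2 difference was -2.08 ± 0.45 in HP, to 0.237 of sham (adjusted p = 0.0135), and -2.68 ± 0.45 in LP, to 0.156 of sham (adjusted p = 0.00328). In HP Grik1 lost the call narrowly without HP sham replicate 3 (-1.98, adjusted p = 0.05004) and HP SNL replicate 3 (-1.92, 0.0527), and with the actin covariate (-1.90, 0.082), in a range of 0.000179 to 0.082. In LP the size was -2.01 without LP SNL replicate 1, the lowest array, and the call held.

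The other 4 kainate genes did not pass in either line. Grik2, which encodes GluK2, had -0.56 ± 0.47 in HP and 0.87 ± 0.47 in LP, Grik3 -0.06 ± 0.50 and -0.48 ± 0.50, and Grik4 -0.48 ± 0.38 and -0.73 ± 0.38. Grik5, a subunit that works only together with others, had -0.18 ± 0.15 and 0.02 ± 0.15. All 5 genes were below 0 in HP and 3 in LP.

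**Figure D3:**
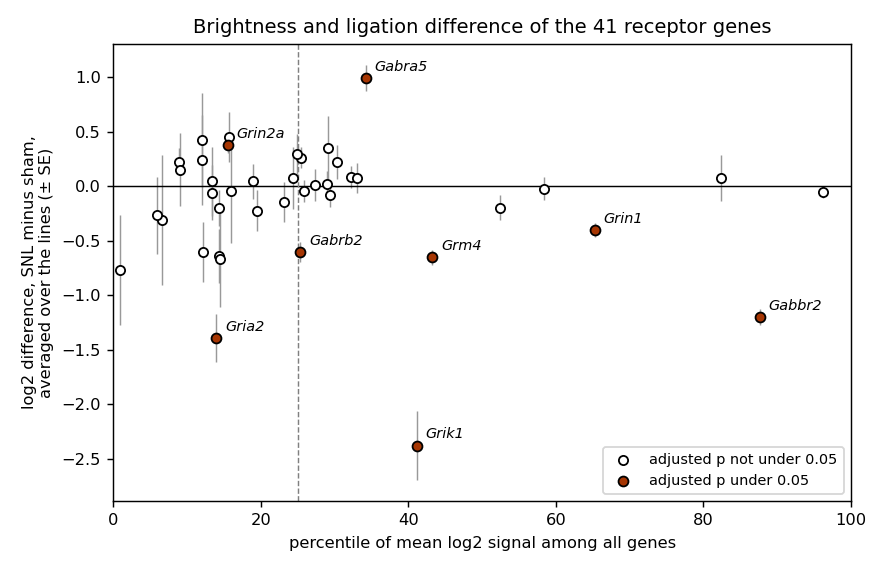
Log2 difference averaged over the lines (± SE) of each receptor gene against the percentile of its mean log2 signal among all genes, with the dashed line at 25%. Error bars are longest on the left, and 6 of the 8 genes past the threshold lie right of the dashed line.

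Of the 7 NMDA channel genes, Grin1 fell in LP and Grin2a rose in LP. Grin1 encodes the subunit that every NMDA receptor needs. Its signal was 643, 669 and 631 in HP sham against 560, 511 and 530 after ligation, and 676, 571 and 664 in LP sham against 429, 434 and 457 in LP SNL. Sham and ligated arrays did not overlap in either line. After ligation log2 signal differed by -0.53 ± 0.09 in LP (adjusted p = 0.00372) and -0.28 ± 0.09 in HP (adjusted p = 0.0722), and the interaction, which tests whether these differ, was -0.25 ± 0.13 (adjusted p = 0.989). A very dim probe set of Grin1, with a mean signal of 13.9, had -0.61 ± 0.63 in HP and 0.33 ± 0.63 in LP, and with both averaged the LP difference of Grin1 was -0.10 (adjusted p = 0.886).

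Grin2a, a glutamate-binding subunit of mature NMDA receptors, was dim. It read 68.5, 86.4 and 77.5 in HP sham against 100.4, 91.9 and 98.5 after ligation, and 83.0, 98.1 and 84.5 in LP sham against 114, 119 and 125 in LP SNL. The ligated arrays lay above the sham arrays of their line. The log2 difference was 0.43 ± 0.11 in LP (adjusted p = 0.0241) and 0.33 ± 0.11 in HP (adjusted p = 0.0797). The LP call was lost in 8 of 21 alternatives (adjusted p from 0.0216 to 0.32), among them quantile normalization (0.28, adjusted p = 0.32) and the fits without LP sham replicates 1 and 3 or LP SNL replicates 2 and 3 (differences of 0.39 to 0.43). Its other probe set, with a mean signal of 52.5, had -0.14 ± 0.19 in HP and 0.17 ± 0.19 in LP.

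The other 5 NMDA genes did not pass. Grin2c, with a mean of 462.4 the brightest of them, had 0.04 ± 0.15 in HP and -0.09 ± 0.15 in LP, and Grin2b, a subunit prominent early in development, 0.09 ± 0.19 and 0.06 ± 0.19. Grin2d had -0.10 ± 0.40 and 0.24 ± 0.40. Grin3a and Grin3b, glycine-binding subunits, had -0.48 ± 0.26 and -0.29 ± 0.45 in HP and 0.19 ± 0.26 and 0.38 ± 0.45 in LP.

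Among the metabotropic receptors, Grm4 fell in both lines. It encodes a group III receptor that damps transmitter release. Its signal was 366, 310 and 359 in HP sham against 246, 244 and 243 after ligation, and 406, 405 and 404 in LP sham against 214, 257 and 220 in LP SNL. No ligated array reached the lowest sham array. Ligation changed log2 signal by -0.49 ± 0.10 in HP (adjusted p = 0.00959) and -0.82 ± 0.10 in LP (adjusted p = 0.000543). With the actin covariate the HP difference of Grm4 was -0.45 (adjusted p = 0.0596, in a range of 0.00369 to 0.0596). By limma the interaction was -0.33 ± 0.14 (adjusted p = 0.989).

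The other 6 metabotropic genes did not pass. Grm8, the brightest of the group III genes with a mean of 1014, varied widely between sham arrays, from 587 to 1221 in HP sham, and had 0.19 ± 0.30 in HP and -0.04 ± 0.30 in LP. Averaged over the lines, another probe set of Grm8 with a mean of 241.3 had -0.46 ± 0.14 (adjusted p over all named probe sets 0.0441), so its 3 probe sets do not give one answer. Grm7 had 0.29 ± 0.16 and -0.24 ± 0.16, and Grm6, a receptor of retinal bipolar cells, -0.11 ± 0.22 and 0.20 ± 0.22. Grm2, a group II receptor, had 0.97 ± 0.32 in HP (adjusted p = 0.0808) and -0.06 ± 0.32 in LP, Grm3 -1.07 ± 0.71 and -0.47 ± 0.71 at a mean signal of 12.3, and Grm5, a group I receptor, -0.43 ± 0.62 and -0.91 ± 0.62.

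**Figure D4:**
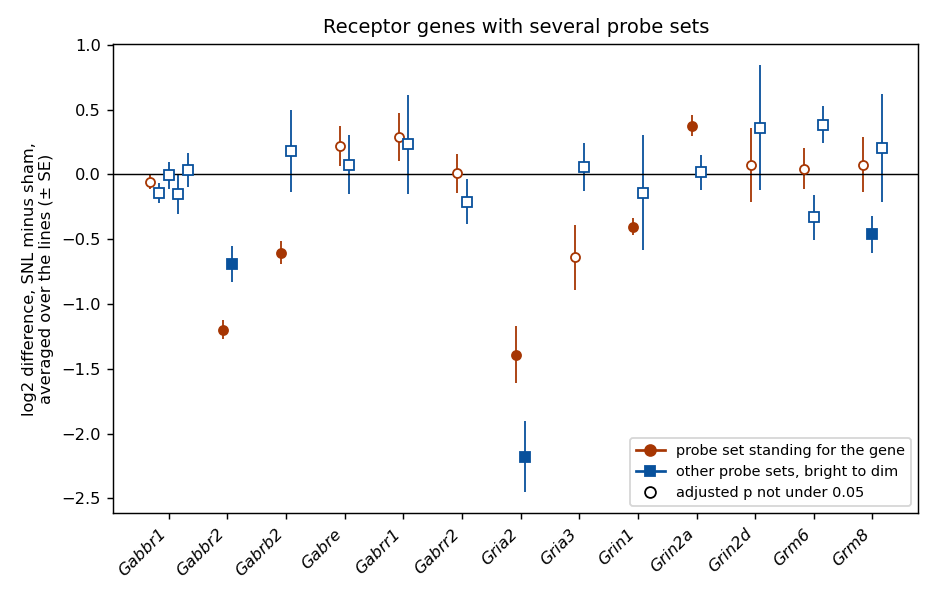
Log2 difference averaged over the lines (± SE) of each probe set of the 13 receptor genes with several probe sets, ordered from bright to dim within a gene and filled where the adjusted p over all named probe sets was under 0.05. Both probe sets of Gabbr2 and of Gria2 lie below 0 and are filled, whereas for Gabrb2, Grin1 and Grin2a only the probe set standing for the gene is filled, and for Grm8 only another one.

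Counted without any model, sham and SNL arrays did not overlap for 11 receptor genes in HP and 13 in LP (26.8% and 31.7%), beside 34.3% and 31.3% of all genes. In HP 9 of these were lower after ligation and 2 higher (22.0% and 4.88%, against 17.1% and 17.2% of all genes). Of these HP genes, Gria3, Grin1, Grin3a and Grm3 (lower) and Grin2a (higher) did not pass by limma. In LP 9 were lower and 4 higher (22.0% and 9.76%, against 14.7% and 16.5% of all genes). Of these LP genes, Gabbr1, Gabrg1 and Gabrg3 (lower) and Gabrd and Gabra4 (higher) did not pass by limma.

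The next comparison was between the lines. After sham no receptor gene differed by limma (0 of 41), where 0.00961% of all genes passed. At an unadjusted p under 0.05 were 7 of 41, a higher share than the 9.77% of all genes, and this share was not tested. The smallest p-values were those of Gabrg3 (LP higher by 0.53 ± 0.15, adjusted p = 0.345), Gabra6, a subunit best known from cerebellar granule cells (-1.11 ± 0.35, 0.389), and Grik5 (-0.42 ± 0.15, 0.428). After sham, 4 genes had no overlap between the lines, all higher in LP (Gabbr1, Gabrg3, Grin2c and Grm4), or 9.76% against 15.6% of all genes, of which 8.19% were higher and 7.41% lower.

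After ligation again no receptor gene passed (0 of 41), where 0.173% of all genes did (0.0864% higher and 0.0864% lower in LP). At an unadjusted p under 0.05 were 6 of 41, a higher share than the 10.7% of all genes, which was not tested either. Grik2 came nearest to passing. It read 18.0, 19.2 and 28.1 in HP SNL and 107, 82.4 and 179 in LP SNL, and 19.9, 44.8 and 36.6 in HP sham against 98.7, 30.2 and 84.9 in LP sham. The ligated arrays of the lines did not overlap, whereas the sham arrays did, and the log2 difference after ligation was 2.39 ± 0.47 (adjusted p = 0.0919). It passed in 1 alternative, without LP sham replicate 2 (adjusted p = 0.0453, in a range to 0.271), at the same difference. Gabra6 read 132, 143 and 111 in HP SNL and 33.9, 58.1 and 46.8 in LP SNL, without overlap (-1.48 ± 0.35, adjusted p = 0.175), and Grin1 had -0.28 ± 0.09 (adjusted p = 0.325). In all, 9 genes had no overlap between the ligated lines (22.0%, against 17.4% of all genes), 5 higher and 4 lower in LP (12.2% and 9.76%, against 9.08% and 8.36%).

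**Figure D5:**
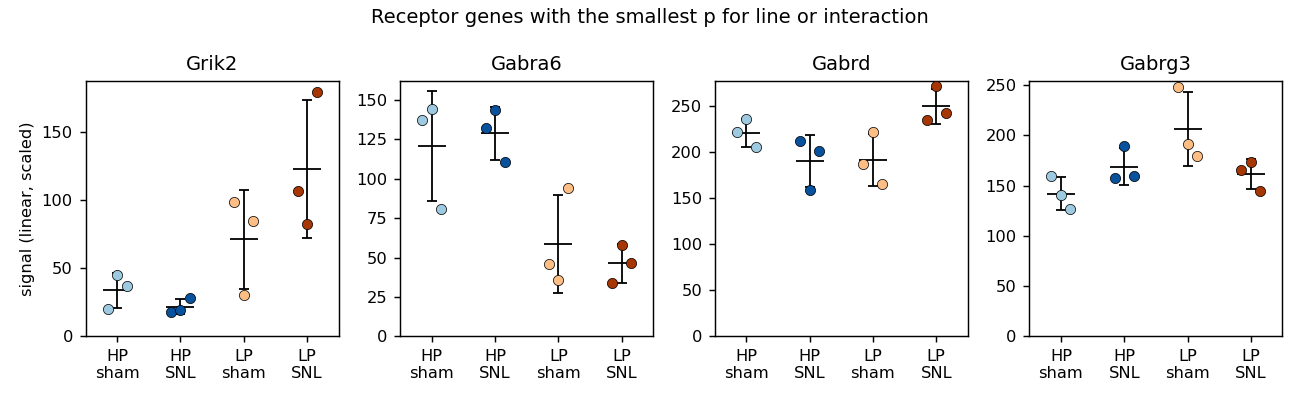
Signals (linear, scaled) of the receptor genes with the 2 smallest p-values after ligation between lines (Grik2, Gabra6) and in the interaction (Gabrd, Gabrg3), with 1 point per array, bars for the mean and whiskers for the SD (n = 3). Grik2 is higher and Gabra6 lower in LP SNL than in HP SNL with no overlap, yet none of these genes passed after adjustment.

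The response to ligation was not shown to differ between the lines for any receptor gene. By limma's interaction test 0 of 41 passed, as did 0% of all genes. An unadjusted p under 0.05 was held by 5 of 41, a higher share than the 4.70% of all genes, and this share was not tested. The smallest p-values were those of Gabrd (0.61 ± 0.20), Gabrg3 (-0.59 ± 0.21) and Grm4 (-0.33 ± 0.14), each with an adjusted p of 0.989 by limma. Gabrd read 222, 236 and 206 in HP sham against 212, 159 and 201 after ligation, and 187, 222 and 165 in LP sham against 236, 272 and 243 in LP SNL. It was higher after ligation in LP without overlap, while the HP groups overlapped. Gabrg3 read 159, 140 and 126 in HP sham against 158, 190 and 159 after ligation, and 248, 191 and 180 in LP sham against 166, 174 and 144 in LP SNL. It was lower after ligation in LP without overlap, while the HP groups overlapped. These comparisons share arrays with the ligation comparisons and are not independent of them.

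Genes that work beside these receptors were also counted. Of 48 measured glutamate genes (transporters, enzymes, scaffolds and auxiliary subunits), 10 fell and 2 rose in HP and 11 fell and 2 rose in LP, with medians of -0.13 and -0.24. Over all genes 6.59% fell and 7.02% rose in HP, and 6.79% fell and 7.66% rose in LP. Nptx1, a secreted pentraxin that clusters AMPA receptors, fell (-1.89 ± 0.21 in HP and -2.46 ± 0.21 in LP), and Cacng2 (stargazin), an auxiliary AMPA subunit, fell (-0.93 ± 0.12 and -0.91 ± 0.12). Nsf, a fusion ATPase that binds the Gria2 subunit, fell (-0.72 ± 0.12 and -0.60 ± 0.12), and the vesicular glutamate transporter gene Slc17a7 fell (-0.64 ± 0.12 and -0.44 ± 0.12). The glutaminase gene Gls2 fell (-1.08 ± 0.24 and -0.91 ± 0.24), and Olfm1 fell (-0.47 ± 0.10 and -0.76 ± 0.10). The risers were Cbln2, a synapse organiser that binds delta receptors (1.06 ± 0.12 and 1.26 ± 0.12), and Glul, the glutamine synthetase of satellite glia (0.62 ± 0.12 and 0.47 ± 0.12).

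Of 26 measured GABA genes (synthesis, transport, chloride carriers, anchors and receptor trafficking), 1 rose in HP and none fell, and 1 rose and 1 fell in LP, with medians of -0.02 and -0.14, where 13.6% of all genes passed in HP and 14.5% in LP. The riser in both lines was Maged1 (0.49 ± 0.10 and 0.48 ± 0.10). Jakmip1, a microtubule-binding partner of Gabbr1, fell in LP (-0.81 ± 0.18). In HP Jakmip1 was also lower but did not pass by limma (-0.51 ± 0.18, adjusted p = 0.0924). Neither count is a test of the list.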

How the data were processed

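The authors deposited linear intensities of 15923 probe sets for each array, made from total RNA labelled with biotin, per the labels' protocols. The submitters' processing notes name RMA, with no version, but every array has the same trimmed mean (500.1 without the lowest and highest 2%), so the steps the authors ran are not settled here. Values were used as log2(value + 1) with no further normalization, since 109 of 191076 were below 1. Probe sets were named from the platform annotation, with symbols updated through RefSeq (GRCr8): 12783 had 1 gene, 312 several and 2771 none. The probe set with the highest mean stood for a gene.

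A single model of the 4 group means was fitted to the 12 arrays together (limma 3.58.1 in R 4.3.3, 8 residual and 2.05 prior degrees of freedom), tested first on simulated data. Median signals per array were 278.9 to 314.2, and precision is limited by having 3 arrays a group. All receptor genes past the threshold are given with every array, and where none passed, the 3 smallest p-values. The genes and lists were chosen with earlier results of these data known. Same-numbered arrays did not deviate together (r from -0.157 to 0.0984 over 18 pairs), so replicate numbers were not used as pairs. Alternatives were the replicate number as a block, quantile normalization, the dimmest 25% of genes left out, a pseudocount of 16, trended and robust variance, array weights, only the arrays compared, probe sets of a gene averaged, each probe set tested separately, the actin ratio as a covariate and each array left out.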

Additional observations from a re-analysis of the deposited data

How the results depend on the processing

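Of 663 single-gene values under the alternatives none changed sign, 39 lost the call and 1 gained it. These values cover only receptor genes past the threshold in a contrast or, where none passed, its 3 smallest p-values. A stable sign was therefore likely from the choice, and the other receptor genes were not followed in this way. The receptor count in HP (6) was 3 with the actin covariate and 5 to 7 without 1 array. The count in LP (8) was 5 with trended and robust variance, 5 in the fit of the LP arrays alone, 5 with probe sets of a gene averaged and 5 to 8 without 1 array. Averaged over the lines (8) it was 5 with probe sets of a gene averaged and 8 to 10 without 1 array. That averaging brings in the dim second probe sets of Gabrb2, Grin1 and Grin2a; the other causes were not tested. After quantile normalization LP held 1 riser and 6 fallers, in place of 2 and 6. Between the lines the count after sham and in the interaction was 0 in every alternative, and after ligation 0 to 1 without 1 array. With the replicate number as a block the counts were 6 in HP, 7 in LP (without Gria2, adjusted p = 0.0835) and 8 averaged, and 1 of 12 arrays correlated best with its own number. Over all genes the HP count of 1417 was 818 with the actin covariate and 846 to 1486 without 1 array, the LP count of 1505 was 815 in the fit of the LP arrays alone, and the line counts of 1 after sham and 18 after ligation moved to between 0 and 6 and between 1 and 53, and the interaction count of 0 to at most 2. Signal over background is unknown.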
